A study of Mus musculus with 6 samples.

Results

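The interferon response and class I presentation genes are 33 genes chosen by name, of which 30 were measured among the 20519 genes that the arrays name. They comprise interferon-induced antiviral genes, the transcription factors that induce them, RNA sensors, and the genes that supply peptides to MHC class I. A probe set was assigned to a member when the authors' deposited table gave the member or an older symbol of it as the only symbol. Irf9 was found as Isgf3g, Dhx58 as D11Lgp2e and Gbp3 as Gbp4. That last symbol now also belongs to another gene, so the values given here for Gbp3 rest on the older naming. Ifit1, Isg15 and Bst2 had no probe set of their own and were not analysed here. The 30 measured genes had 47 probe sets, and the brightest set of each gene, by its 6-array mean, was taken. All 30 passed a mean of 6 on the log2 scale.

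The study compared mice lacking retinoic acid receptor beta, labelled Rarb -/- and called Rarb-null here (3 arrays), with wild-type littermates, labelled Rarb +/+ (3 arrays). Both groups were 4 weeks old, and total RNA came from the cleared mammary fat pad, which the labels call mammary stroma. A description shared by all 6 samples also mentions ErbB2 without saying whether the mice carried a transgene. The labels do not say whether an array holds RNA of 1 mouse or of several, and p-values therefore cover only array-to-array spread, which may be technical. Values are deposited log2 RMA signals, where 1 unit is a 2-fold difference, and each difference is the Rarb-null mean less the wild-type mean.

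Interferons are secreted proteins that warn cells of infection. Type I interferons, such as interferon alpha and beta, signal through Stat2 and Irf9, which bind a DNA element called the ISRE in front of genes such as the Ifit, Oas and Mx families. Interferon gamma acts mainly through a dimer that binds another element, GAS, and through Irf1, and it is known for inducing guanylate-binding proteins and the immunoproteasome, the form of the proteasome that makes peptides for MHC class I. The division is not strict, since many of these genes respond to both kinds of interferon. In a fat pad the transcripts can come from macrophages and other leukocytes as well as from fat cells, fibroblasts, vessels and epithelium. In whole tissue, fewer cells of a type and less RNA per cell cannot be told apart.

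Promoters of members were searched for both elements. RefSeq windows on GRCm38.p6, from 250 bases before to 50 after a start, were available for 27 of the 33 genes, 33 windows in all. The letters searched were GAAANNGAAA on either strand (TTTCNNTTTC on the other), the repeated core of an ISRE, and TTCNNNGAA, which reads alike on both strands and is the core of a GAS. The ISRE letters occurred in 13 of the 33 windows, 39.4%, and in 3.44% of all 32851 windows. The GAS letters occurred in 6 of the 33, 18.2%, and in 8.3% of all. Among 7 windows of type I targets 3 held the ISRE letters and 2 the GAS letters, and among 6 windows of gamma-type targets 2 held the ISRE letters and 1 the GAS letters, so that both motifs occurred in both lists. A match is a description of these letters and not a site shown to be bound. Printed below are a type I target with 2 ISRE matches (Ifit3, chr19:34583279-34583578 on the plus strand), the gamma-type member with the greatest difference in this study (Gbp2, chr3:142620413-142620712 on the plus strand), the transcription factor gene with 2 GAS matches (Irf8, chr8:120736108-120736407 on the plus strand) and Psmb9 (chr17:34187281-34187580 on the minus strand), whose window shares 275 bases with that of Tap1 on the opposite strand and holds neither motif. Matches are in capitals, and none of those printed overlaps another.
Ifit3: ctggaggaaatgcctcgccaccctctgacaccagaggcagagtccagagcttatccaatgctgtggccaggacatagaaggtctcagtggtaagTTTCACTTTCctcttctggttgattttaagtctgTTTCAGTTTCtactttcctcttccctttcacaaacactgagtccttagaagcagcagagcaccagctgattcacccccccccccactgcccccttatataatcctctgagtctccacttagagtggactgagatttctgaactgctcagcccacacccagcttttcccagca
Gbp2: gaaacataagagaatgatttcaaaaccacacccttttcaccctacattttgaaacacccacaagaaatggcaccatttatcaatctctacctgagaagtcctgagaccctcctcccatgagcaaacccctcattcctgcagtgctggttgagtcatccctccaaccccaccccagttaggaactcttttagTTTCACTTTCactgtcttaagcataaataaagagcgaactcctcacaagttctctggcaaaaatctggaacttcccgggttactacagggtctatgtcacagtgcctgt
Irf8: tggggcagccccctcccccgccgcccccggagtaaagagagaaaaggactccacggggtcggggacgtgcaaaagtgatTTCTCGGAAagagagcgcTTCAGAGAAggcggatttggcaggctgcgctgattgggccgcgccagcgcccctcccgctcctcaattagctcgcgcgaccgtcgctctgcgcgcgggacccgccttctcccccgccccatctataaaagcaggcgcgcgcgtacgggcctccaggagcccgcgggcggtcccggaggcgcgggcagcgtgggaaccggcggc
Psmb9: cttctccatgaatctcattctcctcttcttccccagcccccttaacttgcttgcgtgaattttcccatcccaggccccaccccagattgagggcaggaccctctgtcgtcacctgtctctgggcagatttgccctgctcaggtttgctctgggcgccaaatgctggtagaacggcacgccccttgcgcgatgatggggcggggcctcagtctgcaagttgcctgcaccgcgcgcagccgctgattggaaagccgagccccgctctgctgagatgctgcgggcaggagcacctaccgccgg

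The arrays as a whole set limits that apply to every value below. In limma the smallest adjusted p over 45037 probe sets was 0.908, so that 0 met the threshold of 0.05, while 2351 had an unadjusted p under 0.05. Rarb itself read 6.50, 6.61 and 7.41 on Rarb-null arrays and 6.95, 6.01 and 6.65 on wild-type arrays. The position of its probe set relative to the deletion is unknown here, so it checks nothing about the labels. Of the fat cell markers, Adipoq read between 14.35 and 14.62 on every array, whereas the probe set of Plin1 read 5.85 to 6.29. Epithelial markers were also high in tissue labelled as cleared, with Epcam between 12.71 and 13.61, and the milk protein gene Csn2 read 7.63 on wild-type replicate 3 against 13.90 to 14.65 elsewhere. Patterns of other genes split the arrays across genotype: 7 proliferation genes were high on Rarb-null replicates 1 and 2 and wild-type replicate 2, and the brown fat gene Ucp1 read 13.28 on Rarb-null replicate 3 against 6.11 to 10.37 elsewhere.

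Interferon response and class I genes had mostly lower means on Rarb-null arrays, and none passed the threshold. Of the 30 measured genes, 25 had a lower mean, which is 83.3%, against 52.9% of all genes. The median difference was -0.16 log2, against -0.01 over all genes. At an adjusted p of 0.05 in limma, 0 members passed, as did 0.0% of all probe sets, and the members' adjusted p ran from 0.908 to 0.997. At an unadjusted p under 0.05 there were 3 lower members of 30, where 3.41% of all genes were called in that direction, and 0 higher members, where 1.9% of all genes were. The same 3 genes, Psmb10, Irf8 and Gbp2, were those whose groups did not overlap in the lower direction, against 6.59% of all genes, and 0 members lay wholly higher, against 4.01% of all genes. By the authors' deposited table, a count of 3 members had a p-value under 0.05, against 5.52% of all genes. For 27 members the 95% interval left out a 2-fold difference in both directions, and for 14 a 1.5-fold difference.

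**Figure D1:**
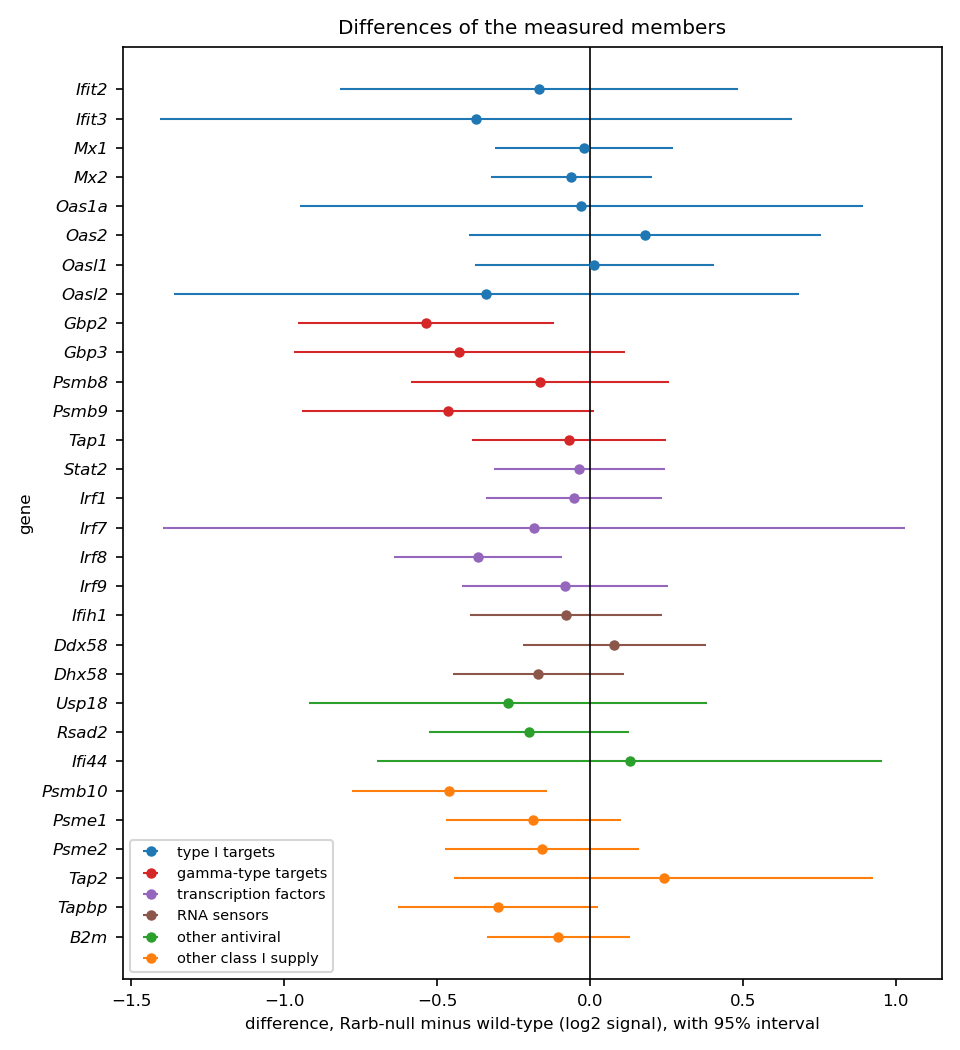
Difference in log2 signal, Rarb-null minus wild type, of the 30 measured members (points) with the 95% interval from limma (lines), coloured by role. Intervals of Gbp2, Irf8 and Psmb10 lie below 0 before adjustment, and those of Ifit3, Oas1a, Oasl2 and Irf7 are wide.

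Much of the lower mean came from 1 array. Rarb-null replicate 3 held the lowest of the 6 values for 18 of the 30 members, 60.0%, whereas 17.7% of all genes had their lowest value there, and for 0 members did it hold the highest. Averaged over the members, signal relative to the 6 arrays was 0.12, 0.04 and -0.40 on Rarb-null arrays 1 to 3 and 0.01, 0.15 and 0.07 on wild-type arrays 1 to 3. The first 2 Rarb-null arrays thus lay within the wild-type range. Without Rarb-null replicate 3, 15 of 30 members had a lower mean, against 58.0% of all genes, and the median difference was 0.01 log2. Then 3 members lay wholly lower, against 14.5% of all genes. In that setting 1 member lay wholly higher, and the share of all genes that did so is not given here.

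**Figure D2:**
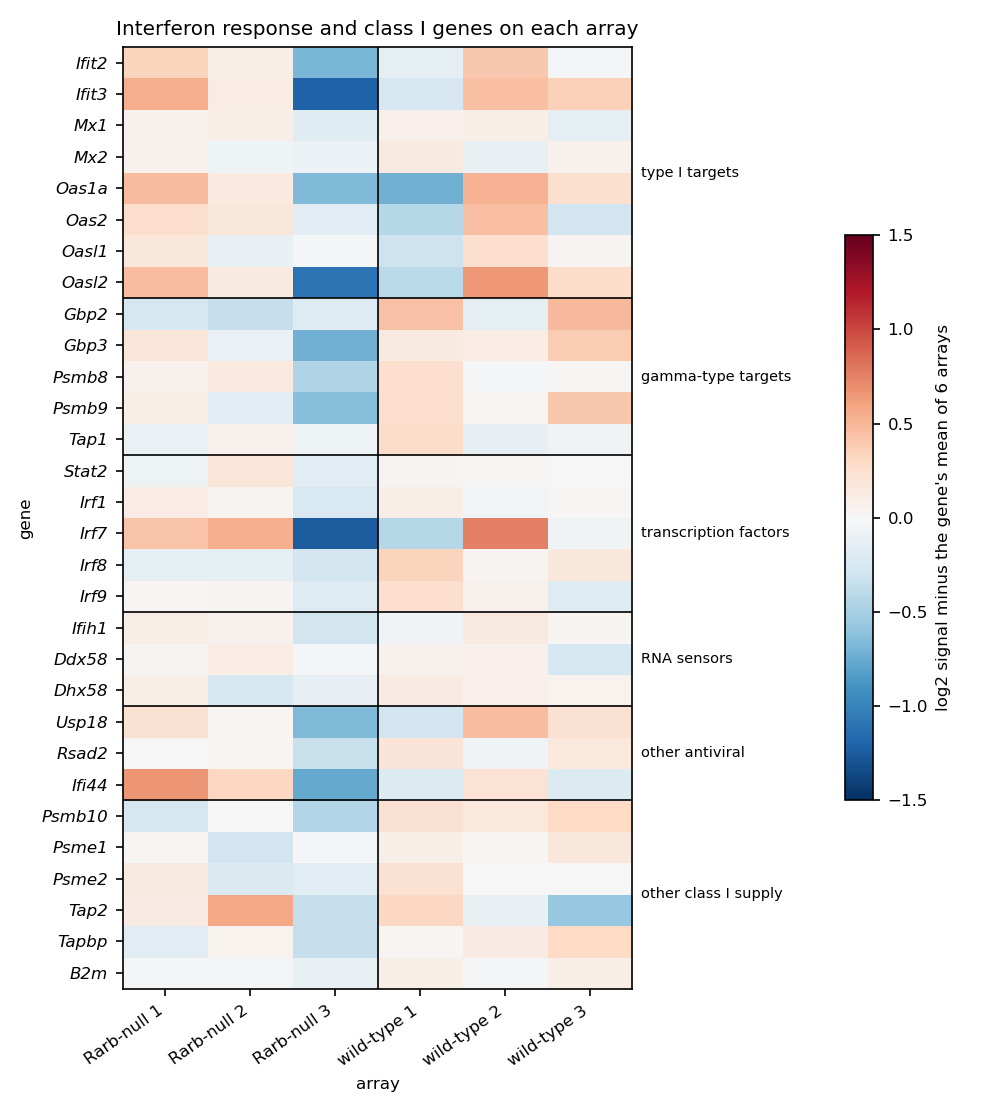
Log2 signal of each measured member (rows, grouped by role) on each array (columns), relative to the gene's mean of the 6 arrays, with red above and blue below. The column of Rarb-null replicate 3 is blue for most members, and the Ifit, Oas and Irf7 rows are also blue on wild-type replicate 1.

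Among the type I targets, the antiviral Ifit, Mx and Oas genes, values varied more between arrays of a genotype than between genotypes. Of 8 measured genes 6 were lower in mean for the Rarb-null group, at a median difference of -0.05 log2, and all 8 overlapped. Ifit3, whose product binds viral RNA together with its relatives, read 10.90, 10.47 and 9.14 on Rarb-null arrays 1 to 3 and 10.10, 10.81 and 10.71 on wild-type arrays 1 to 3. The highest and the lowest value were thus both on Rarb-null arrays. Its difference was -0.37 log2 (95% interval -1.41 to 0.66, adjusted p = 0.959 in limma).

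Oasl2, a relative of the oligoadenylate synthetases that activate RNase L, read 9.80, 9.47 and 8.24 on Rarb-null and 8.93, 9.98 and 9.61 on wild-type arrays, differing by -0.34 log2. Oas1a, a synthetase of that family, read 10.86, 10.53 and 9.72 on Rarb-null and 9.66, 10.91 and 10.63 on wild-type arrays, differing by -0.03 log2. Both were low on Rarb-null replicate 3 and wild-type replicate 1, a pair that crosses the genotypes. Oas2 had the greatest positive difference of this set, 0.18 log2, with its highest value, 9.22, on wild-type replicate 2. Ifit2 differed by -0.17 log2 and Oasl1 by 0.02 log2. Mx1 and Mx2, dynamin-like GTPases that block viruses, differed by -0.02 and -0.06 log2, and each spanned less than 0.3 log2 over the 6 arrays.

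Gamma-type targets, the guanylate-binding protein genes Gbp2 and Gbp3 with Psmb8, Psmb9 and Tap1, were lower in mean for the Rarb-null group in 5 of 5, at a median difference of -0.43 log2. Psmb8 was 0.02 log2 higher without Rarb-null replicate 3, and Tap1 0.05 log2 higher without wild-type replicate 1. The median describes these 5 genes only. Gbp7, a guanylate-binding protein gene counted below among further interferon-stimulated genes, differed by -0.02 log2. From that further list, Ifi47, Cxcl10, Irgm1, Irgm2 and Igtp differed by 0.003, -0.02, -0.10, -0.19 and -0.20 log2. Cxcl9 and Ido1 differed by -0.28 and -0.51 log2, and for all of these further genes the groups overlapped. Gbp2, a GTPase gene of defence against intracellular microbes, read 10.89, 10.81 and 10.96 on Rarb-null arrays and 11.60, 11.03 and 11.65 on wild-type arrays. All Rarb-null values lay below all wild-type values, with wild-type replicate 2 the nearest to them. The means were 10.89 ± 0.07 and 11.42 ± 0.35 (SD, n = 3 each), with a difference of -0.54 log2 (95% interval -0.95 to -0.12), or 1.45-fold lower, at an adjusted p of 0.908 in limma. Its other probe set differed by -0.20 log2, and there the groups overlapped. Gbp3, a gene of the same family, read 12.15, 11.87 and 11.25 on Rarb-null and 12.11, 12.08 and 12.36 on wild-type arrays, with overlap between the groups and a difference of -0.43 log2, which was -0.17 log2 without Rarb-null replicate 3.

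The catalytic immunoproteasome subunits are Psmb8, Psmb9 and Psmb10, which replace the constitutive Psmb5, Psmb6 and Psmb7. Psmb9 read 10.93, 10.67 and 10.20 on Rarb-null arrays and 11.09, 10.86 and 11.24 on wild-type arrays. Wild-type replicate 2 lay below Rarb-null replicate 1, so the groups overlapped. Its difference was -0.47 log2 (95% interval -0.94 to 0.01, adjusted p = 0.908 in limma), and it was -0.26 log2 without Rarb-null replicate 3. Psmb10 read 10.99, 11.24 and 10.80 on Rarb-null arrays and 11.47, 11.40 and 11.53 on wild-type arrays, with no overlap. The means were 11.01 ± 0.22 and 11.47 ± 0.07 (SD, n = 3 each), and the difference was -0.46 log2 (95% interval -0.78 to -0.14, 1.38-fold lower). Among the brightest probe sets of the members, it had the smallest unadjusted p, 0.0111, with an adjusted p of 0.908 in limma. Psmb8 differed by -0.16 log2 with overlap. At its dimmer probe set, singled out after its values were seen, Psmb8 read 6.70, 6.27 and 6.08 on Rarb-null and 7.26, 7.05 and 7.09 on wild-type arrays, with no overlap. The difference there was -0.78 log2 (unadjusted p = 0.00251, below that of Psmb10, and adjusted p = 0.908 in limma). The constitutive counterparts, given because they pair with members, differed by -0.02 log2 (Psmb5), -0.12 log2 (Psmb6) and 0.08 log2 (Psmb7). Of these, Psmb6 also lay wholly lower, at 11.86, 11.87 and 11.73 on Rarb-null and 11.91, 11.98 and 11.92 on wild-type arrays. Whether the immune and constitutive subunits differ from each other in response was not tested.

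**Figure D3:**
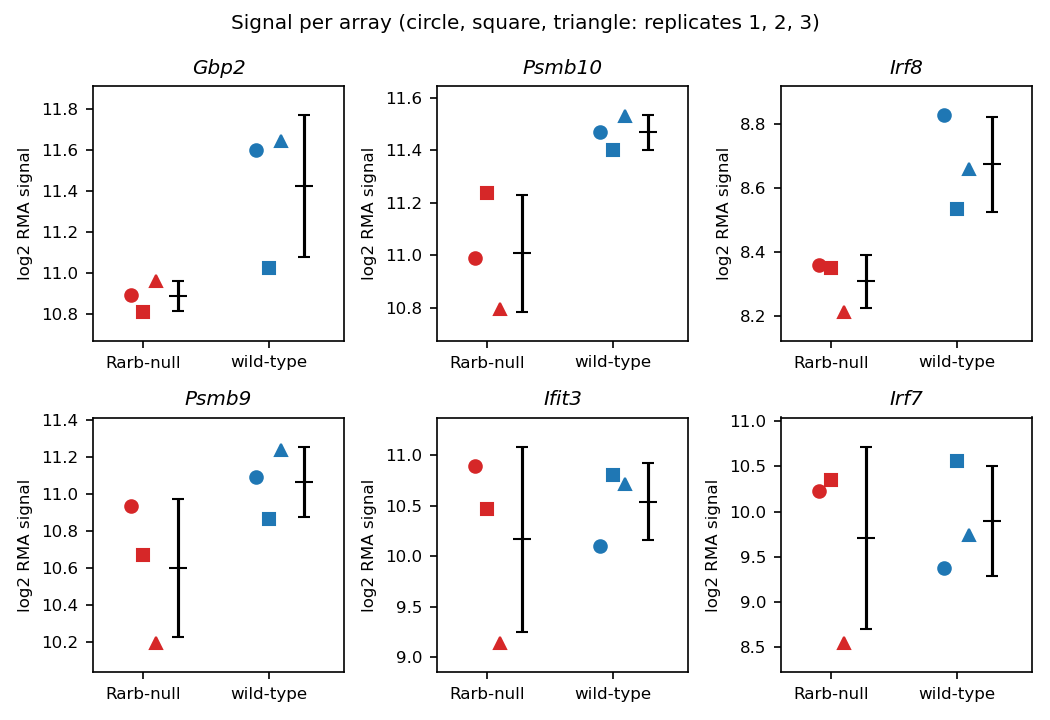
Log2 RMA signal per array of 6 members (coloured symbols, with replicates told apart by shape), beside the group mean and SD (black). Gbp2, Psmb10 and Irf8 show no overlap between groups, Psmb9 overlaps through 1 array of each group, and Ifit3 and Irf7 spread widely within each group.

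Other genes of peptide supply and loading had lower means in 5 of 6, with a median difference of -0.17 log2. Their mean signal relative to the 6 arrays was -0.02, 0.02 and -0.24 on Rarb-null and 0.16, 0.03 and 0.05 on wild-type arrays. That was just without overlap, whereas the groups overlapped for the mean of every other role. Tapbp, which encodes tapasin, the bridge between empty class I molecules and the peptide transporter, read 12.13, 12.33 and 11.93 on Rarb-null and 12.31, 12.41 and 12.58 on wild-type arrays. Rarb-null replicate 2 exceeded wild-type replicate 1, and the difference was -0.30 log2 (95% interval -0.63 to 0.03, adjusted p = 0.908 in limma). The other probe set of Tapbp had the opposite sign, at 0.06 log2. Psme1 and Psme2, the subunits of the proteasome activator PA28, differed by -0.19 and -0.16 log2. Psme1 read 10.60, 10.29 and 10.56 on Rarb-null and 10.66, 10.59 and 10.75 on wild-type arrays, with Rarb-null replicate 1 just above wild-type replicate 2.

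The transporter genes Tap1 and Tap2, which together move peptides into the endoplasmic reticulum, differed by -0.07 and 0.24 log2, and for both the groups overlapped. Tap2 was the member with the greatest positive difference, and its wild-type values ran from 9.59 to 10.47. That difference was 0.01 log2 without Rarb-null replicate 2 and 0.019 log2 without wild-type replicate 3, where the difference of Oas2 was greater, at 0.14 and 0.08 log2. B2m, the light chain of every class I molecule, read 14.55, 14.56 and 14.46 on Rarb-null arrays and 14.67, 14.54 and 14.66 on wild-type arrays. That is a difference of -0.10 log2 (95% interval -0.34 to 0.13, adjusted p = 0.949 in limma), and its 2 remaining probe sets were negative too.

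Of the transcription factors all 5 had lower means, with a median difference of -0.08 log2, but without Rarb-null replicate 3 the differences of Irf1, Irf7 and Stat2 were positive, at 0.05, 0.40 and 0.035 log2. Irf8, a factor of macrophages and dendritic cells that also acts in the interferon gamma response, read 8.36, 8.35 and 8.21 on Rarb-null and 8.83, 8.53 and 8.66 on wild-type arrays. No value overlapped. The means were 8.31 ± 0.08 and 8.67 ± 0.15 (SD, n = 3 each), with a difference of -0.37 log2 (95% interval -0.64 to -0.09, 1.29-fold lower, adjusted p = 0.908 in limma), and its other probe set differed by -0.27 log2 with overlap.

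Stat2 and Irf9, the partners of the type I complex, differed by -0.04 and -0.08 log2. Stat2 read 7.51, 7.76 and 7.42 on Rarb-null and 7.62, 7.60 and 7.58 on wild-type arrays, and Irf9 read 8.98, 9.0 and 8.77 against 9.20, 9.02 and 8.76. Both overlapped, and the intervals, from -0.32 to 0.25 log2 and from -0.42 to 0.26 log2, excluded a 1.5-fold difference either way. Irf7, which amplifies the type I response, had the widest spread of all members: 10.22, 10.35 and 8.55 on Rarb-null and 9.37, 10.56 and 9.74 on wild-type arrays, differing by -0.18 log2 (95% interval -1.40 to 1.03). It was high on the same 3 arrays as the proliferation genes and lowest on Rarb-null replicate 3. Irf1, the factor that drives many class I genes, differed by -0.05 log2.

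RNA sensors and the remaining antiviral genes showed small differences. The cytosolic sensors of viral RNA, Ifih1 (MDA5) and Ddx58 (RIG-I), differed by -0.08 and 0.08 log2. Dhx58 (LGP2), which regulates both, read 8.53, 8.19 and 8.30 on Rarb-null and 8.55, 8.50 and 8.48 on wild-type arrays, differing by -0.17 log2 with Rarb-null replicate 1 inside the wild-type range. The other probe sets of Dhx58, both dimmer, differed by 0.22 and -0.35 log2, and those of Ddx58 by 0.11 and -0.24 log2. Usp18, which removes ISG15 from proteins and dampens type I signalling, read 8.73, 8.53 and 7.84 on Rarb-null and 8.22, 8.97 and 8.73 on wild-type arrays. Its difference was -0.27 log2, against 0.09 log2 at the second probe set, and it was -0.005 log2 without Rarb-null replicate 3. Rsad2, the viperin gene, read 11.29, 11.31 and 10.96 on Rarb-null and 11.48, 11.23 and 11.44 on wild-type arrays, differing by -0.20 log2 with overlap and by -0.08 log2 without Rarb-null replicate 3. Ifi44 differed by 0.13 log2, with Rarb-null values from 6.99 to 8.42.

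Type I and gamma-type targets put the arrays in different orders, and neither list separated the genotypes. Mean signal of the 8 type I targets relative to the 6 arrays was 0.30, 0.07 and -0.52 on Rarb-null arrays 1 to 3 and -0.26, 0.34 and 0.07 on wild-type arrays 1 to 3. The 5 gamma-type targets gave -0.00, -0.08 and -0.42 on Rarb-null and 0.27, -0.03 and 0.25 on wild-type arrays. Wild-type replicate 1 was thus low for type I and high for gamma-type targets, and Rarb-null replicate 3 was low for both. The gamma-type mean minus the type I mean was -0.30, -0.15 and 0.10 on Rarb-null and 0.53, -0.37 and 0.18 on wild-type arrays, so the groups overlapped. The gamma-type median difference minus the type I median difference was -0.38 log2. The SD of that gap between arrays of a genotype was about as large, at 0.381 log2. Averages of the means above lay closer, at -0.17 (Rarb-null) and 0.17 (wild type) for gamma-type targets and -0.05 and 0.05 for type I targets. No p is given for these means, since the genes were chosen with results known. Without Rarb-null replicate 3, 1 of the 8 type I targets had a lower mean and their median was 0.13 log2, whereas 4 of the 5 gamma-type targets did and theirs was -0.17 log2.

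**Figure D4:**
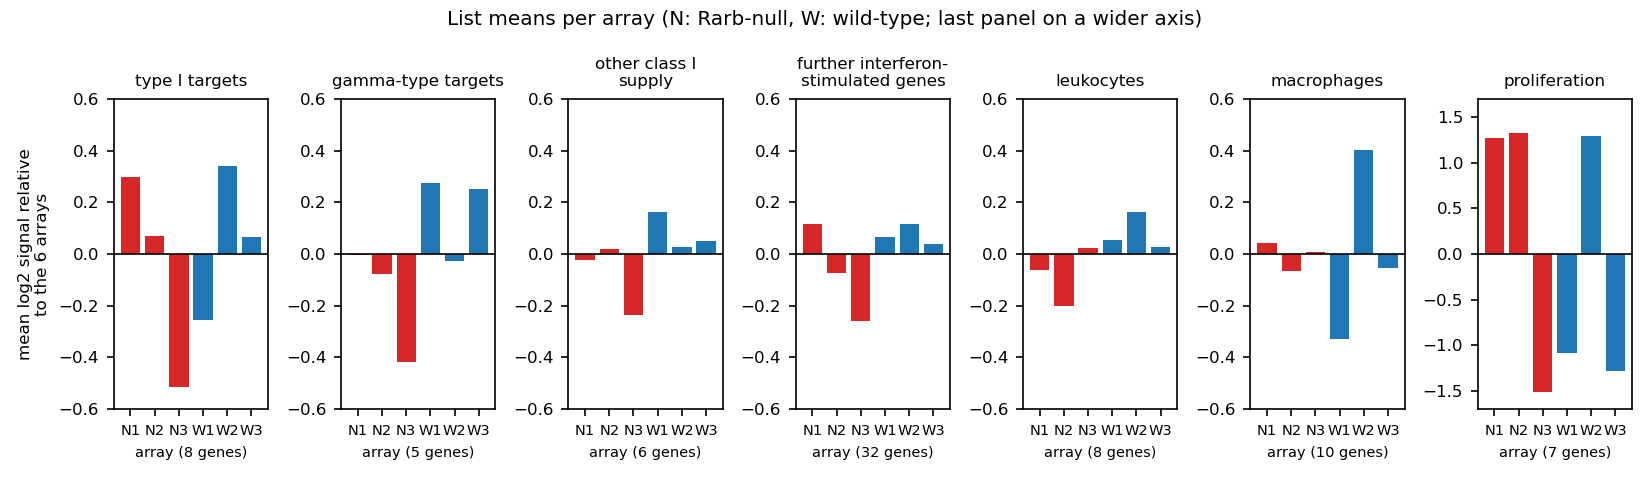
Mean log2 signal of the genes of each list relative to the 6 arrays, by array (bars; red Rarb-null, blue wild type). Type I targets reach 0.34 on wild-type replicate 2 and -0.52 on Rarb-null replicate 3, gamma-type targets are highest on wild-type replicates 1 and 3, and the proliferation panel has a wider axis.

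Markers of other cell types and of proliferation varied over the same arrays. Proliferation genes averaged 1.27, 1.33 and -1.52 on Rarb-null and -1.09, 1.29 and -1.28 on wild-type arrays, and the 2 arrays with the highest type I means were among the 3 high in proliferation genes. Macrophage markers had 5 of 10 lower means and averaged from -0.07 to 0.04 on Rarb-null and from -0.33 to 0.40 on wild-type arrays, with wild-type replicate 2 the highest and wild-type replicate 1 the lowest. Leukocyte markers had 5 of 8 lower means, with a median of -0.02 log2, and averaged from -0.20 to 0.02 on Rarb-null and from 0.03 to 0.16 on wild-type arrays, just without overlap. Of these, Coro1a and Cd52 differed by -0.71 and -0.57 log2 with no overlap, whereas Ptprc, the pan-leukocyte CD45 gene, differed by 0.08 log2. T and NK cell markers had 6 of 10 lower means, with averages from -0.18 to 0.23 on Rarb-null and from -0.20 to 0.15 on wild-type arrays. Dendritic cell markers had 4 of 7 lower means, and B cell and lymph node markers 7 of 9. Fat cell markers had 8 of 8 lower means, with a median of -0.19 log2, and averaged from -0.20 to -0.05 on Rarb-null and from -0.33 to 0.35 on wild-type arrays. Mammary epithelial markers had 9 of 10 higher means, with a median of 0.36 log2, and averaged from 0.20 to 0.33 on Rarb-null and from -1.24 to 0.53 on wild-type arrays. Fibroblast markers had 6 of 8 higher means, with a median of 0.10 log2 and averages from -0.08 to 0.17 on Rarb-null and from -0.34 to 0.19 on wild-type arrays. The files carry no detection calls, so no marker could be called absent. The part of these cells and of proliferation in the differences was not tested.

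Upstream genes of the pathway, from a list of ligands, receptors and kinases, were split in direction. The 6 interferon genes divided into 3 lower and 3 higher means, and Ifng and Ifnb1, the dim signals of interferon gamma and beta, differed by -0.22 log2 each with overlap. Of 12 genes for receptors, Janus kinases and feedback, 7 had lower means, with a median of -0.10 log2, and 0 passed. At an unadjusted p under 0.05 in limma, 1 was lower, against 3.41% of all genes, and 0 were higher, against 1.9%. Socs3, an inhibitor of cytokine signalling, read 8.46, 8.34 and 9.19 on Rarb-null and 9.45, 9.06 and 9.99 on wild-type arrays, differing by -0.83 log2 with overlap (adjusted p = 0.908 in limma). Pias1, an inhibitor of Stat factors, differed by 0.32 log2. Of 15 genes of nucleic acid sensing and induction, 10 had lower means and 0 passed. Irf2, which opposes Irf1, read 7.06, 7.32 and 7.004 on Rarb-null and 6.64, 6.92 and 6.66 on wild-type arrays, wholly higher by 0.39 log2, although a second probe set differed in sign. Tlr3, a receptor for double-stranded RNA, lay wholly lower, at 9.15, 8.89 and 8.89 against 9.37, 9.20 and 9.26, with -0.30 log2 as the difference.

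Downstream, 26 of 32 further interferon-stimulated genes had lower means on Rarb-null arrays, 81.2% against 52.9% of all genes, with a median of -0.12 log2. At an unadjusted p under 0.05, 3 were lower, against 3.41% of all genes, 0 were higher, against 1.9%, and 0 passed. Ifi35, an interferon-induced protein gene, read 11.58, 11.37 and 11.15 on Rarb-null and 11.82, 11.88 and 12.05 on wild-type arrays, with no overlap. Its difference of -0.54 log2 (95% interval -0.87 to -0.22) had an adjusted p of 0.908 in limma. Isg20, an exonuclease gene, read 9.28, 9.05 and 9.11 on Rarb-null and 9.48, 9.41 and 9.59 on wild-type arrays, also without overlap, a difference of -0.35 log2. Without Rarb-null replicate 3, 20 of the 32 were lower in mean, near the 58.0% of all genes, at a median of -0.05 log2 against -0.035 for all genes.

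Class I heavy chain and chaperone genes split into 4 lower and 4 higher means, with a median of 0.01 log2, and 0 passed; heavy chain genes are near-identical relatives whose probes can share signal, and their single values are not given. Pdia3, a disulfide isomerase of the loading complex, read 11.95, 12.24 and 11.65 on Rarb-null and 11.42, 11.52 and 11.14 on wild-type arrays, wholly higher by 0.58 log2 (95% interval 0.16 to 1.001, adjusted p = 0.908 in limma). Canx, the calnexin gene, differed by 0.26 log2 with overlap. Constitutive proteasome genes divided into 5 lower and 4 higher, with a median of -0.02 log2 and 0 passing. Among these 9 genes Psmb1, with a difference of -0.26 log2, and Psmb6 lay wholly lower, as did 6.59% of all genes, and Psme4, an alternative proteasome activator, lay wholly higher by 0.18 log2, as did 4.01% of all genes.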

How the data were processed

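Gene expression of 6 arrays, 3 Rarb-null and 3 wild type, was analysed from the value table. The authors deposited log2 values that RMA produced according to the submitters' processing notes. RMA subtracts background, equalises the arrays' distributions and summarises each probe set; version, array design and annotation build are not given in the sources used here. A second table gives group means, their log2 fold change and a p-value per probe set, computed by the authors per the file headers. The authors also deposited a score per probe set, named SAM d-score in the file headers, which was not used.

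Of 45101 probe sets, 64 controls were left out. Symbols were updated through RefSeq genes of GRCm38.p6. The genotypes were compared in limma 3.58.1 (lmFit, eBayes; R 4.3.3), two-sided, with Benjamini-Hochberg adjustment over 45037 probe sets and a threshold of 0.05. The design had no covariates. It was tried on simulated data with independent noise and shifts larger than any member's difference, which says nothing about differences of the size seen here. Members and lists were chosen with earlier results of these data known. Values are given for the 8 members with the smallest p, the greatest difference in each role, Stat2, Irf9 and B2m, and, of each further list, the 2 genes with the smallest p, by array for most of them; every other measured member is given by its difference, and further genes were added after their values were seen. Of 94 further pathway genes, 82 had a probe set. Alternatives were other scalings, filters, priors, array weights, a replicate block, the mean of a gene's probe sets, and leaving out each array. The number of arrays limits precision. Figures used Python 3.11.15 and matplotlib 3.10.9.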

Additional observations from a re-analysis of the deposited data

How the results depend on the processing

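No member passed an adjusted p of 0.05 in limma under any alternative, with 0.237 as the smallest (Gbp2, without wild-type replicate 2), against 0.908 with all arrays. With 1 array left out, the probe sets past the threshold ran from 0 to 1 (without Rarb-null replicate 2), the members with a lower mean from 15 to 27, their median from -0.25 to 0.01 log2, the type I median from -0.21 to 0.13, the gamma-type median from -0.54 to -0.17, and the gap between those medians from -0.48 to -0.24. The 15, the 0.01, the 0.13 and the -0.17 arose without Rarb-null replicate 3, and without wild-type replicate 2 the type I median was 0.007. The gap of -0.24 arose without wild-type replicate 1, and the gap between list means was not computed with arrays left out. Leaving out arrays also moved, as alternatives chosen after seeing the data, the lower members at an unadjusted p under 0.05 (1 to 5, with 1 without wild-type replicate 1 and 5 without Rarb-null replicate 1, against 1.68% to 6.12% of all genes over the 6 settings) and those with no overlap (3 to 8; 8 without Rarb-null replicate 1, 5 without Rarb-null replicate 2 and 7 without wild-type replicate 2, against 10.8%, 8.9% and 15.5% of all genes); fewer arrays make separation easier. Array weights, 0.51 for Rarb-null replicate 3 and 2.73 for replicate 1, left 17 lower members and medians of -0.03 (all), 0.04 (type I) and -0.20 log2 (gamma-type). Of 240 member values under alternatives that kept all arrays, 11 changed sign. The filters, the changed prior and the replicate block cannot move a member's difference, so those values within the 240 could not change sign. Most changes came with array weights: Ifit2 0.045, Ifit3 0.031, Mx1 0.023, Oas1a 0.23, Oasl2 0.009, Irf1 0.026, Irf7 0.17 and Ifih1 0.004. The others were Oasl1 with a further quantile normalization, -0.017, and with median centring, -0.01, and Ddx58 with all probe sets of a gene averaged, -0.019. With 1 array left out, 15 members changed sign, with ranges of Ddx58 -0.032 to 0.14, Ifi44 -0.167 to 0.548, Ifih1 -0.144 to 0.04, Ifit2 -0.378 to 0.131, Ifit3 -0.739 to 0.141, Irf1 -0.121 to 0.048, Irf7 -0.505 to 0.395, Irf9 -0.198 to 0.022, Mx1 -0.091 to 0.065, Oas1a -0.398 to 0.297, Oasl1 -0.139 to 0.145, Oasl2 -0.653 to 0.128, Psmb8 -0.277 to 0.023, Stat2 -0.132 to 0.035, Tap1 -0.144 to 0.053. The cause was not tested. The replicate block gave 0 probe sets and 0 members past the threshold and left every difference as it was; same-numbered arrays deviated from their group means with correlations of -0.20, 0.45 and 0.29, and Rarb-null replicate 1 correlated best with wild-type replicate 2, so the numbers were not taken as pairs.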

Other observations

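Oas3, another oligoadenylate synthetase gene, singled out after its values were seen, read 8.59, 7.43 and 6.38 on Rarb-null and 6.68, 7.39 and 6.65 on wild-type arrays, a spread within the Rarb-null group of over 2 log2 units. Lgals3bp, a secreted interferon-induced glycoprotein gene chosen in the same way, read 11.15, 10.18 and 9.55 on Rarb-null and 11.13, 11.06 and 10.93 on wild-type arrays, where the wild-type values lay together and Rarb-null replicate 1 exceeded them.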
